A study of Drosophila melanogaster with 60 samples.

Results

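A set of 9 genes of fat storage and lipolysis was followed in abdominal fat tissue of female Drosophila melanogaster. They were chosen by name, for their roles, among the 13969 genes measured. The 4 genes of triglyceride synthesis were mdy, Dgat2, Gpat4 and Lpin, the 2 coat proteins of lipid droplets were Lsd-1 and Lsd-2, the 2 lipases were bmm and Hsl, and the hormone receptor was AkhR. All 9 passed the filter on low counts.

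The fat body of the fly does the work of liver and adipose tissue. It makes triglyceride by adding fatty acids to glycerol phosphate one after another, with diacylglycerol acyltransferases such as mdy and Dgat2 at the last step, and keeps it in droplets coated by perilipins. When energy is needed, adipokinetic hormone (AKH), a glucagon-like peptide, acts through its receptor AkhR, and lipases release fatty acids from the droplets.

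RNA was sequenced from flies of 2 genotypes at 25 °C and of 1 genotype also at 18 °C. Clk-Jrk flies carried a mutant allele of Clock (Clk), an activator gene of the circadian clock, backcrossed 7 times into w1118, and were held at 25 °C (12 libraries). The wild type was w1118, which carries a mutation of the eye colour gene white, and was held at 18 °C (24 libraries, of which 22 were used) or at 25 °C (24 libraries). All flies were mated females about 3 days old at the start, on a diet of sucrose and yeast, entrained for 5 days in cycles of 12 h light and 12 h dark. Each library pooled the fat tissue of 10 flies, left on the abdominal epidermis after the other organs had been cut away. Time is counted in hours from lights on, as zeitgeber time (ZT). Wild type was sampled every 2 h and Clk-Jrk every 4 h, with 2 replicates at each time. The sources used here do not say whether Clk-Jrk flies had 1 or both copies of the allele, nor which of the 2 incubators with opposite light schedules each sample came from.

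Total estimated counts per library were 10667764 to 28822277 in Clk-Jrk, 4923858 to 25133564 in wild type at 18 °C and 5808864 to 46590109 in wild type at 25 °C. Of the wild type at 18 °C, the replicate 1 columns labelled ZT 2 and ZT 20 held the same values, and neither was used. The clock genes tim and vri, direct targets of Clk, were lower in Clk-Jrk, at 0.08 and 0.15 of the level in wild type at 25 °C (edgeR adjusted p = 3.48e-07 and 8.16e-08), at 6 of 6 times each, and per, another target, was at 0.65 of it (adjusted p = 0.0099). Clk itself was at 0.86 of the wild-type level (adjusted p = 0.246), and its counts do not tell the mutant allele apart. All 8 fat body markers were present in each group, with a summed level of 151718 to 358514 CPM (counts scaled to the size of the library) in Clk-Jrk, 26303 to 166512 in wild type at 18 °C and 53487 to 302209 in wild type at 25 °C. Of the 7 tested fat body markers, 3 were higher and 0 lower in Clk-Jrk (median log2 difference 0.43), and 1 was higher and 1 lower at 18 °C (median -0.74). Markers of organs meant to have been removed were found too. The summed level of 21 ovary genes was 216 to 3008 CPM in Clk-Jrk, 68.7 to 3358 in wild type at 18 °C and 258 to 7265 in wild type at 25 °C, and none of them was at 0 throughout a group. At 18 °C, 19 of the 21 were lower than at 25 °C, and 8 of 21 were lower in Clk-Jrk than in wild type. The summed level of 15 gut genes was 7.21 to 445 CPM in Clk-Jrk, 7.06 to 4359 in wild type at 18 °C and 4.2 to 5708 in wild type at 25 °C. Of the 11 gut genes tested, 1 was lower in Clk-Jrk and 2 were higher at 18 °C. Of 12 muscle genes, 7 were lower in Clk-Jrk and 7 were higher at 18 °C, both against wild type at 25 °C. Of 8 haemocyte genes, 4 were higher in Clk-Jrk and 5 were higher at 18 °C, and of 8 Malpighian tubule genes 7 were lower in Clk-Jrk and 2 lower at 18 °C. These counts are at an adjusted p under 0.05. At that threshold 18.5% of all 9289 tested genes were higher and 24.9% lower in Clk-Jrk. At 18 °C 23.3% were higher and 25.3% lower. In such bulk tissue, fewer cells of a type and less RNA per cell cannot be told apart.

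In Clk-Jrk, 3 of the 9 genes were higher than in wild type at 25 °C (Dgat2, Lpin and bmm) and 1 was lower (Lsd-2), at the 6 shared times and an adjusted p under 0.05. Of all 9289 genes tested, 18.5% were called higher and 24.9% lower, 43.4% in all, so the share of the 9 genes was close to that of other genes. The balance turned when levels were compared in TPM (limma-trend on log2 of TPM + 1), where the libraries are scaled to a fixed total. There 1 of the 9 was higher in Clk-Jrk (Dgat2) and 4 were lower (Lsd-1, Lsd-2, Hsl and AkhR), beside 6.76% of all genes higher and 48.8% lower, 55.5% in all. At 18 °C, 4 of the 9 were higher than in wild type at 25 °C (mdy, bmm, Hsl and AkhR) and 1 was lower (Dgat2), over 12 times. In that comparison 23.3% of all genes were called higher and 25.3% lower, 48.5% in all. On the TPM scale Lsd-1 was called higher as well, which made 5 higher and 1 lower, beside 20.1% of all genes higher and 17.1% lower, 37.2% in all. The differences of single genes varied in size. Dgat2 was higher in Clk-Jrk by 1.98 on the log2 scale and lower at 18 °C by 1.09, mdy was higher at 18 °C by 0.80, and the other called differences were between 0.34 and 0.48 in size. The 2 comparisons share the wild-type libraries at 25 °C, so their values are given side by side and not set against each other.

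**Figure D1:**
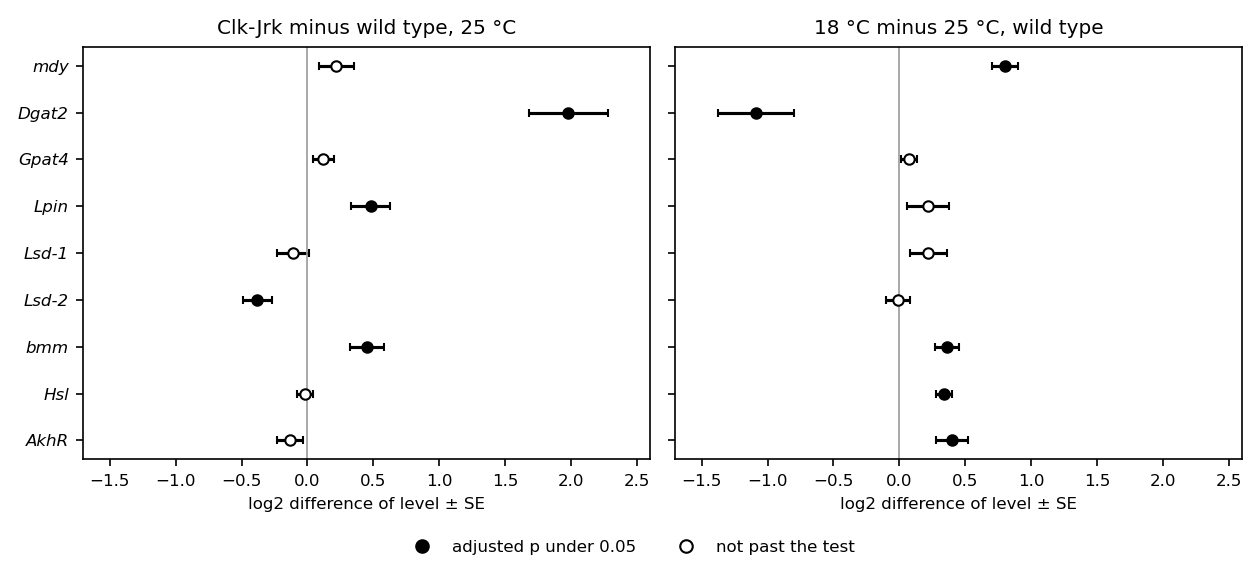
Difference of level (log2 of counts, horizontal axis, with SE) of the 9 genes (rows) between Clk-Jrk (n = 12) and wild type (n = 12) at 25 °C, left, and between wild type at 18 °C (n = 22) and at 25 °C (n = 24), right. Filled points have an adjusted p under 0.05. Dgat2 lies at 1.98 on the left and at -1.09 on the right, and mdy at 0.80 on the right.

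Dgat2 encodes a diacylglycerol acyltransferase (FBgn0033215, chromosome 2R:7712578-7714182, plus strand, in the annotation of build BDGP6.54). Levels are given as the lowest, the median and the highest library of a group. In the 12 Clk-Jrk libraries those of Dgat2 were 49.7, 72.8 and 144 CPM, against 2.76, 20.5 and 47.8 CPM in the 12 wild-type libraries at 25 °C of the same times. Every Clk-Jrk library lay above every one of those wild-type libraries, so these ranges did not overlap. They did overlap with the range of all 24 wild-type libraries at 25 °C, of which the highest had 65.5 CPM, at ZT 16. How many of all genes had ranges apart was not counted, while 43.4% were called in this comparison. The difference was 1.98 ± 0.30 (SE) on the log2 scale, 3.94-fold, with an adjusted p of 0.000162, and its sign was the same at 6 of 6 times. By time, the log2 difference was 3.51 at ZT 2, 2.09 at ZT 6, 1.26 at ZT 10, 3.17 at ZT 14, 1.54 at ZT 18 and 1.49 at ZT 22. The largest of these stood at times when a wild-type library was low: 2.76 CPM in replicate 1 at ZT 2 and 3.33 CPM in replicate 2 at ZT 14. The wild-type library of ZT 2 also had the highest ovary marker sum of the 12, 5763 CPM. Without 6 libraries set aside from earlier results of these data, this one among them, the difference was 2.05, with an adjusted p of 0.000645. Over 13 other ways of fitting it ran from 1.61 to 2.57, and its adjusted p stayed at or under 0.0258.

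At 18 °C the lowest, median and highest levels of Dgat2 were 2.08, 7.94 and 18.4 CPM, against 2.76, 15.2 and 65.5 CPM over all 24 wild-type libraries at 25 °C. The ranges overlapped, with 19 of the 22 libraries at 18 °C at or below the median of those at 25 °C. The difference was -1.09 ± 0.29 on the log2 scale, 2.12-fold lower at 18 °C, with an adjusted p of 0.00367. It was lower at 10 of 12 times, from -2.42 at ZT 22 to 0.74 at ZT 14. The wild-type libraries at 25 °C were spread widely, and at 10 of 12 times replicate 2 was above replicate 1, by a median of 1.09 on the log2 scale. Without replicate 2 the difference was -0.73 (adjusted p = 0.148), so this call rested on that series. It was lost too with a replicate term in each group, at -0.62 (adjusted p = 0.159). Ovary markers were lower at 18 °C as well. With the means of ovary, gut and muscle markers as covariates the difference was -1.53 (adjusted p = 0.0192).

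Dgat2 lies between 2 related genes in the annotation, CG1941 (2R:7709873-7711981) and CG1946 (2R:7714923-7716781), both annotated on the plus strand. CG1941 had a median of 3.23 CPM in Clk-Jrk and 2.65 CPM in wild type at 25 °C (log2 difference 0.06 ± 0.19, adjusted p = 0.817). At 18 °C CG1941 had a median of 5.64 CPM, against 2.65 CPM at 25 °C, and was higher by 1.05 ± 0.17 on the log2 scale (adjusted p = 2.99e-05), where Dgat2 was lower. CG1946 was under the filter, with medians of 0.282 CPM in Clk-Jrk, 0.092 in wild type at 18 °C and 0.141 in wild type at 25 °C. How reads common to related genes were divided among them is not known.

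The gene mdy (midway) encodes the other main diacylglycerol acyltransferase, of the DGAT1 kind (FBgn0004797, 2L:16816660-16826964, plus strand). In Clk-Jrk its lowest, median and highest levels were 99.2, 139 and 168 CPM, against 62, 124 and 254 CPM in wild type at the same times. The wild-type range spanned the whole Clk-Jrk range, and the log2 difference was 0.22 ± 0.13 (adjusted p = 0.179), or -0.05 on the TPM scale (adjusted p = 0.674). With the marker covariates it was 0.47 and past the test (adjusted p = 0.0313). At 18 °C the levels of mdy were 108, 191 and 370 CPM, against 62, 116 and 254 CPM at 25 °C. The ranges overlapped, but 21 of the 22 libraries at 18 °C were above the median at 25 °C. The difference was 0.80 ± 0.10 on the log2 scale, 1.74-fold, with an adjusted p of 1.77e-06, and mdy was higher at 18 °C at 12 of 12 times, by 0.34 at ZT 10 to 1.36 at ZT 2. In 14 other ways of fitting it stayed between 0.53 and 0.91, and the adjusted p was at most 0.0113. The lowest of these values, 0.53, came with the marker covariates.

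In TPM, which is scaled for transcript length, Dgat2 and mdy were most nearly equal in Clk-Jrk and furthest apart in wild type at 18 °C. The ratio of Dgat2 to mdy had a median of 0.892 in Clk-Jrk (0.504 to 1.85) and was above 1 in 4 of 12 libraries. At 18 °C the wild-type ratio had a median of 0.0748 (0.0155 to 0.203). At 25 °C its median was 0.217 (0.0698 to 1.08), with 1 of 24 libraries above 1. At the 6 shared times the wild-type ratio at 25 °C had a median of 0.283 (0.0721 to 0.691), which overlapped the Clk-Jrk range.

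**Figure D2:**
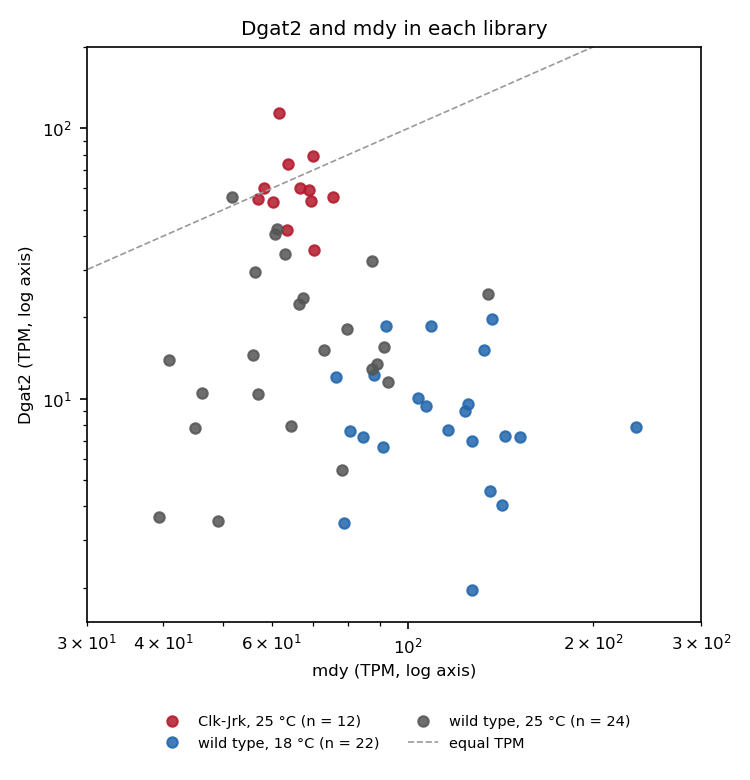
Level of Dgat2 (vertical, TPM, log axis) against that of mdy (horizontal, TPM, log axis) in each library of the 3 groups, with a dashed line where they are equal. The Clk-Jrk libraries lie between 35.4 and 114 TPM of Dgat2, and those of wild type at 18 °C between 1.97 and 19.7 TPM with mdy at 76.3 to 235 TPM.

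Lpin and Gpat4 act at earlier steps. Lpin encodes lipin, the phosphatidate phosphatase that makes diacylglycerol (FBgn0263593, 2R:8136986-8156654, minus strand), and shares 600 bases of exon with kermit on the same strand, so that reads of those bases could be divided between them. Its lowest, median and highest levels were 223, 310 and 423 CPM in Clk-Jrk, against 127, 222 and 312 CPM in wild type at the same times. Of the Clk-Jrk libraries, 6 of 12 were above all 12 wild-type ones. Lpin was higher in Clk-Jrk by 0.48 ± 0.15 on the log2 scale, 1.40-fold, with an adjusted p of 0.016, at 6 of 6 times, while kermit was lower by a log2 difference of -0.47 ± 0.11 (adjusted p = 0.0039). The call for Lpin was lost without replicate 2 (0.61, adjusted p = 0.0659), without the 6 libraries (0.37, adjusted p = 0.0991) and on the TPM scale (0.20, adjusted p = 0.125). At 18 °C the levels of Lpin were 137, 248 and 513 CPM, against 97.7, 222 and 313 CPM at 25 °C, and the log2 difference was 0.22 ± 0.16 (adjusted p = 0.262). In wild type at 25 °C the library of replicate 2 was above that of replicate 1 at 11 of 12 times, by a median of 0.68 on the log2 scale, and at 18 °C at 9 of 10.

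Gpat4 encodes a glycerol-3-phosphate acyltransferase, of the first step (FBgn0034971, 2R:24068757-24073552, plus strand). It was the steadiest of the 4, with 88.1, 111 and 130 CPM in Clk-Jrk, 77.4, 98.4 and 127 CPM in wild type at 18 °C and 72.7, 95.4 and 126 CPM in wild type at 25 °C. The ranges overlapped almost wholly. The log2 difference was 0.12 ± 0.08 between Clk-Jrk and wild type (adjusted p = 0.249), or -0.17 on the TPM scale (adjusted p = 0.0843), and 0.07 ± 0.06 between 18 °C and 25 °C (adjusted p = 0.364). Without replicate 1 the difference in Clk-Jrk was 0.33 and past the test (adjusted p = 0.0435), and without replicate 2 it was -0.06 (adjusted p = 0.806).

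Both perilipins were the most abundant of the 9 genes, and their differences were small. Lsd-1 encodes perilipin 1, which takes part in the release of fat under AKH (FBgn0039114, 3R:23763857-23766662, plus strand), and Lsd-2 perilipin 2, which shields droplets from lipases (FBgn0030608, X:15069127-15076220, minus strand). Lsd-1 had 434, 689 and 1135 CPM in Clk-Jrk, 533, 842 and 1559 CPM in wild type at 18 °C and 346, 795 and 1181 CPM in wild type at 25 °C. Its log2 difference was -0.11 ± 0.12 between Clk-Jrk and wild type (adjusted p = 0.46) and 0.22 ± 0.14 between 18 °C and 25 °C (adjusted p = 0.203). On the TPM scale Lsd-1 was lower in Clk-Jrk, by -0.39 (adjusted p = 0.00158), and higher at 18 °C, by 0.25 (adjusted p = 0.0476). Lsd-1 shares 144 bases of exon with CG10214 on the opposite strand, and the sources used here do not say whether the counting used strand.

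Lsd-2 was lower in Clk-Jrk. Its lowest, median and highest levels were 586, 724 and 1160 CPM in Clk-Jrk, against 727, 948 and 1293 CPM in wild type at the same times, and 6 of 12 Clk-Jrk libraries were below all 12 wild-type ones. The log2 difference was -0.38 ± 0.11, 1.30-fold lower in Clk-Jrk, with an adjusted p of 0.0121. By time it was 0.13 at ZT 2, 0.08 at ZT 6, -0.52 at ZT 10, -0.32 at ZT 14, -0.76 at ZT 18 and -0.65 at ZT 22, so that Lsd-2 was lower at 4 of 6 times. The call was lost without replicate 1 (-0.25, adjusted p = 0.238), without replicate 2 (-0.47, adjusted p = 0.106) and without the 6 libraries (-0.31, adjusted p = 0.0972). On the TPM scale the difference was larger, at -0.65 (adjusted p = 0.000425). At 18 °C Lsd-2 had 615, 911 and 1400 CPM, against 678, 999 and 1334 CPM at 25 °C, and the log2 difference was -0.01 ± 0.09 (adjusted p = 0.927).

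Of both lipases, bmm was higher in each comparison. It encodes brummer, the fly counterpart of adipose triglyceride lipase, which takes the first fatty acid off triglyceride (FBgn0036449, 3L:14776496-14786412, minus strand). Its levels were 92, 150 and 256 CPM in Clk-Jrk, against 73.2, 118 and 141 CPM in wild type at the same times, with 6 of 12 Clk-Jrk libraries above all 12 wild-type ones. The difference was 0.45 ± 0.13 on the log2 scale, 1.37-fold, with an adjusted p of 0.0102, and bmm was higher at 5 of 6 times. This call was lost without replicate 2 (0.33, adjusted p = 0.269), with the marker covariates (0.40, adjusted p = 0.0756), with a replicate term in each group (0.33, adjusted p = 0.154) and on the TPM scale (0.14, adjusted p = 0.268). At 18 °C bmm had 106, 137 and 294 CPM, against 73.2, 122 and 160 CPM at 25 °C, and 6 of 22 libraries at 18 °C were above all 24 at 25 °C. The log2 difference was 0.36 ± 0.09, 1.29-fold, with an adjusted p of 0.00202, and bmm was higher at 18 °C at 12 of 12 times. Without replicate 1 it was 0.30 (adjusted p = 0.0533), and with the marker covariates 0.18 (adjusted p = 0.384).

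Hsl, the hormone-sensitive lipase (FBgn0034491, 2R:20257650-20261726, plus strand), varied least of the 9 between libraries, with an SD of 0.09, 0.18 and 0.15 of log2 CPM in Clk-Jrk, wild type at 18 °C and wild type at 25 °C. At 18 °C its lowest, median and highest levels were 40.1, 56.4 and 67.7 CPM, against 35.9, 46.8 and 53 CPM at 25 °C. Of the 22 libraries at 18 °C, 17 were above all 24 at 25 °C. The difference was 0.34 ± 0.06 on the log2 scale, 1.27-fold, with an adjusted p of 5.61e-05, and Hsl was higher at 18 °C at 12 of 12 times, by 0.16 to 0.53. It stayed past the test in all 14 other ways of fitting, at 0.23 to 0.48, with an adjusted p of at most 0.0493. In Clk-Jrk its levels were 40.2, 45.8 and 50.7 CPM, inside the wild-type range of 35.9, 44.4 and 52.8 CPM, and the log2 difference was -0.02 ± 0.06 (adjusted p = 0.827). On the TPM scale that difference was -0.29 (adjusted p = 0.00832). On that scale the median of all genes moved by -0.20 in this comparison, relative to the scaling used elsewhere here, and by 0.01 in the comparison of temperatures.

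AkhR (FBgn0025595, 2L:6711286-6716186, minus strand) was higher at 18 °C. Its levels were 149, 243 and 346 CPM at 18 °C, against 93.3, 196 and 278 CPM at 25 °C, and 8 of 22 libraries at 18 °C were above all 24 at 25 °C. The difference was 0.40 ± 0.12 on the log2 scale, 1.32-fold, with an adjusted p of 0.00694, and AkhR was higher at 18 °C at 12 of 12 times, by 0.04 at ZT 12 to 1.16 at ZT 2. Without replicate 2 it was 0.24 (adjusted p = 0.25), with a replicate term in each group 0.35 (adjusted p = 0.0655), and with the marker covariates 0.14 (adjusted p = 0.577). In Clk-Jrk its levels were 128, 186 and 240 CPM, against 95.2, 188 and 269 CPM in wild type, and the log2 difference was -0.13 ± 0.10 (adjusted p = 0.31), or -0.41 on the TPM scale (adjusted p = 0.000511).

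Compared per length, the order of the levels was led by the perilipins in all 3 groups. Median levels of Lsd-1 were 490 TPM in Clk-Jrk, 763 in wild type at 18 °C and 658 in wild type at 25 °C, and those of Lsd-2 were 347, 526 and 518 TPM. Lsd-1 was above Lsd-2 in 12 of 12, 21 of 22 and 18 of 24 libraries of these groups. AkhR followed in wild type, at 146 TPM at 18 °C and 113 TPM at 25 °C. In Clk-Jrk it had 78.6 TPM, beside 79.2 TPM of Lpin, and was the higher of the pair in 8 of 12 libraries. The middle of the order held mdy, Gpat4, Lpin and bmm. Their medians in wild type at 25 °C were 63.9, 65.8, 69 and 60.3 TPM, and those of Lpin and Gpat4 changed places from library to library, with Lpin above in 12 of 24. At 18 °C mdy stood out of this group at 120 TPM. Hsl and Dgat2 had the lowest medians in all 3 groups. In Clk-Jrk Dgat2 had 57.6 TPM, near bmm at 63.3 TPM, and Hsl 12.4 TPM. At 25 °C in wild type Dgat2 had 14.8 TPM and Hsl 14.4 TPM, with Dgat2 above in 13 of 24 libraries. At 18 °C Hsl had 19 TPM and Dgat2 7.77 TPM, with Hsl above in 21 of 22.

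**Figure D3:**
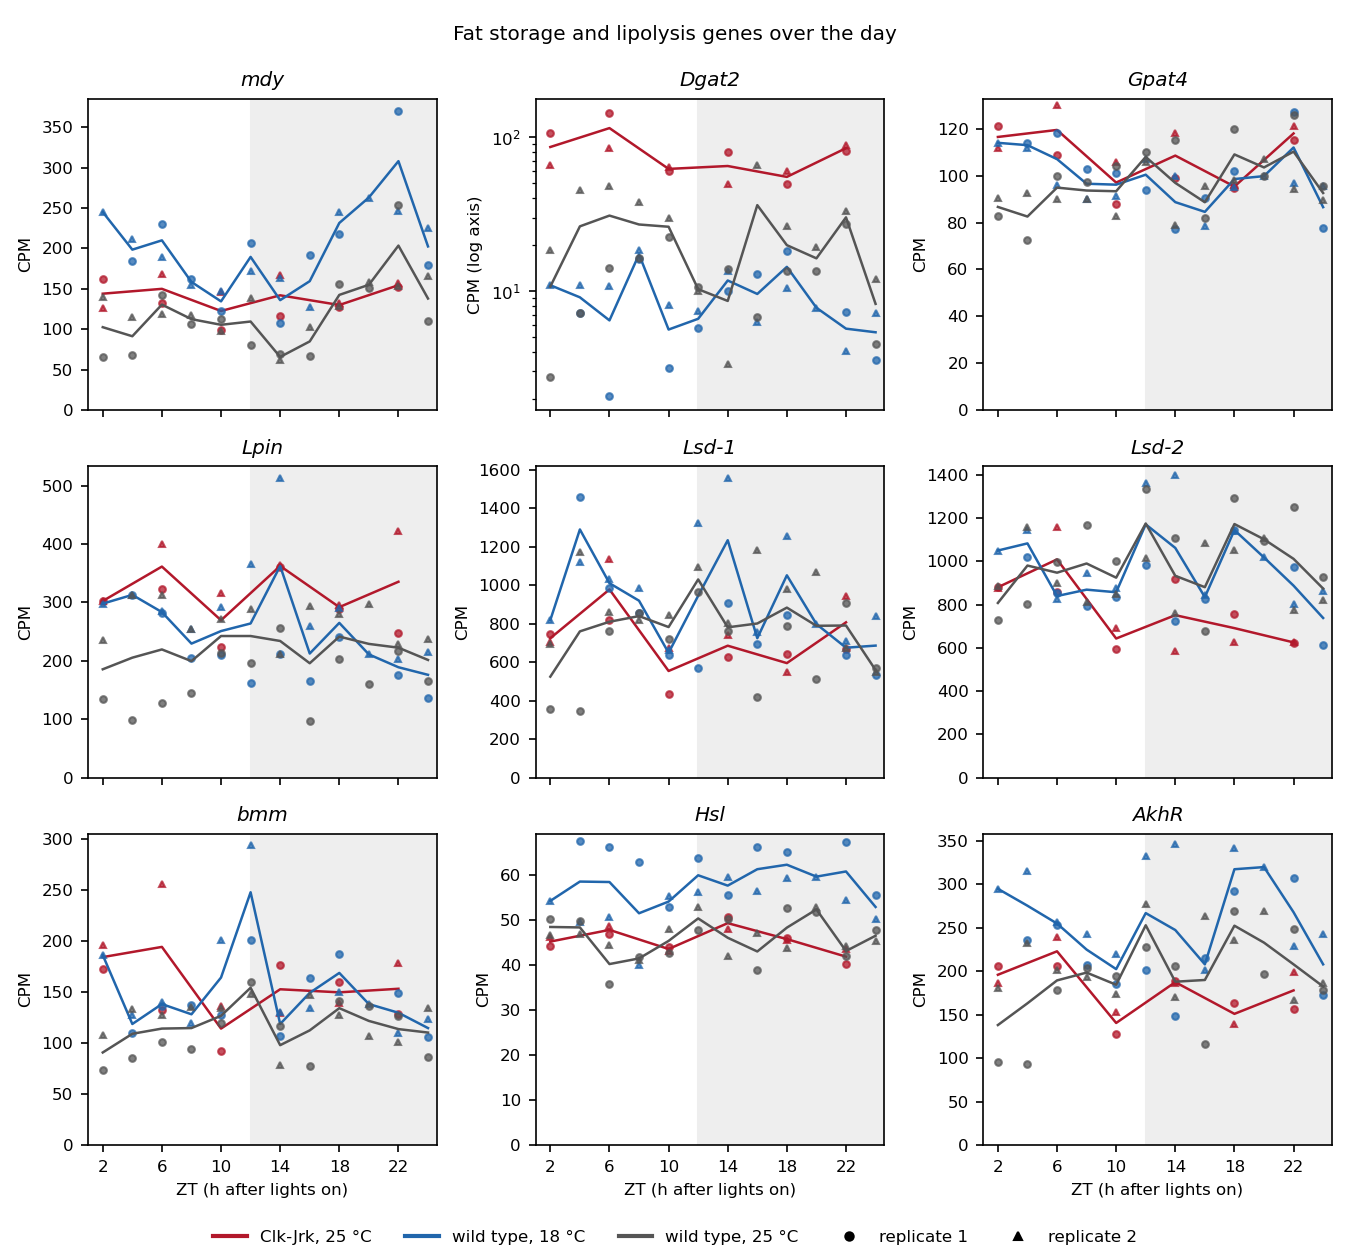
Level (CPM, vertical; log axis for Dgat2) of the 9 genes against ZT (h after lights on), with lines through the mean of each time, circles for replicate 1 and triangles for replicate 2; the dark hours are shaded. Clk-Jrk libraries of Dgat2 lie at 49.7 to 144 CPM, above the wild-type libraries of the same times, and mdy has its highest mean at ZT 22 in each group.

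Over the day, most of the 9 genes showed no 24 h rhythm past the test. With a cosine of 24 h, 0 of 9 were called in Clk-Jrk, 1 of 9 in wild type at 18 °C (mdy) and 0 of 9 in wild type at 25 °C, by edgeR with an adjusted p under 0.05. Of all genes, 0% were called in Clk-Jrk, 1.94% in wild type at 18 °C and 0.398% in wild type at 25 °C. At an unadjusted p under 0.05 the counts among the 9 were 1 in Clk-Jrk (Dgat2) and 1 in each wild-type group (mdy). Of all 9289 genes, 1432 in Clk-Jrk, 1417 in wild type at 18 °C and 831 in wild type at 25 °C were under it. DESeq2 called 0 of the 9 in Clk-Jrk, where it called 170 of all genes. It called 0 in wild type at 25 °C, where it called 103 of all genes, and 1 in wild type at 18 °C (mdy). The edgeR test called 0 of the 4 clock genes Clk, tim, per and vri in Clk-Jrk. In wild type it called 4 of 4 at 18 °C and 3 of 4 at 25 °C, so it could find strong rhythms in those libraries. The amplitude of tim, for example, was 0.38 ± 0.25 in Clk-Jrk, 1.31 ± 0.16 in wild type at 18 °C and 1.52 ± 0.18 in wild type at 25 °C, on the log2 scale from mean to peak.

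The level of mdy was highest late in the night. In wild type at 18 °C its mean was 308 CPM at ZT 22, from 370 and 246 CPM in both replicates, and 134 CPM at ZT 10, from 122 and 147 CPM. Its amplitude was 0.40 ± 0.09 on the log2 scale, the cosine peaked at ZT 23.1 ± 0.9 h at 1.75 times its trough, and the adjusted p was 0.0482. In wild type at 25 °C its mean was 203 CPM at ZT 22 and 65.7 CPM at ZT 14, and the cosine, with an amplitude of 0.33 ± 0.14 and its peak at ZT 22.8 ± 1.6 h, did not pass (adjusted p = 0.538). In Clk-Jrk the mean was 155 CPM at ZT 22 and 123 CPM at ZT 10, with an amplitude of 0.11 ± 0.10 (adjusted p = 0.824). The differences in rhythm were not past the test either. The amplitude at 18 °C minus that at 25 °C was 0.07 ± 0.17 (adjusted p = 0.975 for the rhythm as a whole). That in Clk-Jrk minus that in wild type at the 6 shared times was -0.31 ± 0.25 (adjusted p = 0.596). The test of rhythm between Clk-Jrk and wild type called 0 of the 4 clock genes as well.

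The call of mdy at 18 °C lay close to the threshold. It was lost without replicate 1 (adjusted p = 0.1), without replicate 2 (adjusted p = 0.526) and when any of 10 of the 12 times was left out, most of all ZT 22 (adjusted p = 0.213). With a light and dark step, ZT 2 to 12 against the later times, also in the fit, mdy had an adjusted p of 0.0383 and bmm was called too (adjusted p = 0.0365). That step stands for light and dark hours and for the incubators with opposite schedules, which cannot be told apart here.

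The amplitudes of the remaining 8 genes did not pass the test after adjustment in the main fits, and some were no larger than their SE. In wild type at 18 °C they ran from 0.08 ± 0.05 for Hsl to 0.24 ± 0.25 for Dgat2, and in wild type at 25 °C from 0.06 ± 0.04 for Hsl to 0.28 ± 0.14 for Lsd-1. In Clk-Jrk the largest was that of Dgat2, 0.41 ± 0.15, with a mean of 115 CPM at ZT 6 and 55.2 CPM at ZT 18 (adjusted p = 0.306). For all of bmm, AkhR, Lsd-1, Lsd-2 and Gpat4, the highest Clk-Jrk mean was at ZT 6. In wild type at 25 °C bmm, AkhR, Lsd-1, Lsd-2 and Lpin had their highest mean at ZT 12 and their lowest at ZT 2. Replicate 1 of that group had an ovary marker sum of 5763 CPM at ZT 2 and 7265 CPM, the highest of the group, at ZT 4. The rhythm of 0 of 9 genes differed between 18 °C and 25 °C, where 0.118% of all genes were called. Between Clk-Jrk and wild type 0 of 9 differed, where 0% of all genes were called. At an unadjusted p under 0.05 those counts were 1 (Gpat4, p = 0.0367) and 0, beside 1297 and 902 of all 9289 genes. DESeq2 called 0 of the 9 in both. Of the 4 clock genes, the edgeR test called 3 between 18 °C and 25 °C but 0 between Clk-Jrk and wild type. There vri had an adjusted p of 0.37 and tim 0.473. That test did not find the change of these strong wild-type rhythms, so its 0 of 9 cannot show that rhythms were alike. At the spread between these libraries, the amplitudes of these 8 genes were not detectable after adjustment.

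**Figure D4:**
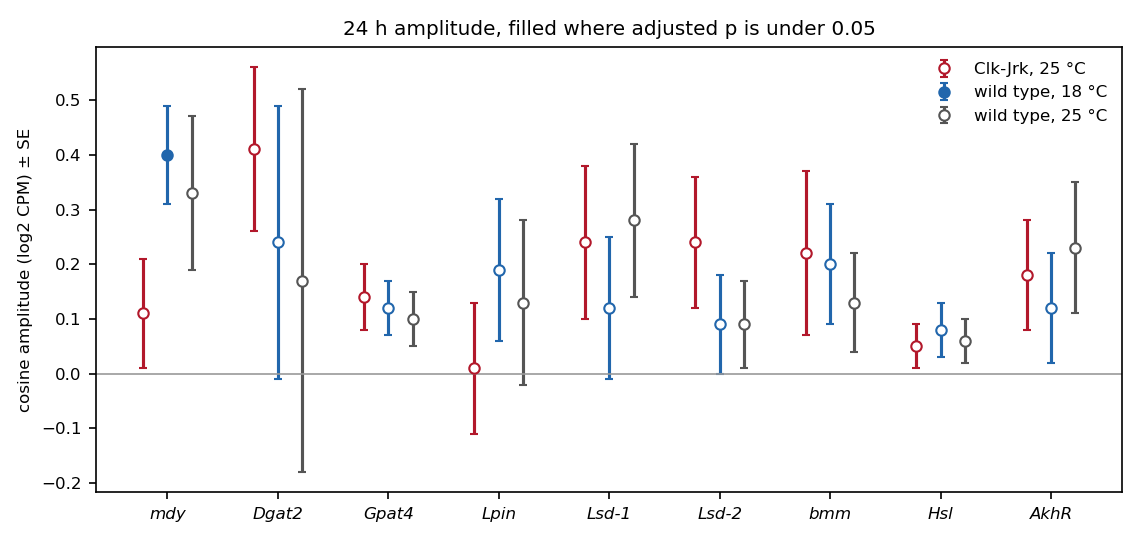
Amplitude of a 24 h cosine (log2 CPM from mean to peak, vertical, with SE) of the 9 genes in Clk-Jrk, wild type at 18 °C and wild type at 25 °C, in that order from the left; filled where the adjusted p is under 0.05. Only mdy at 18 °C, at 0.40, is filled.

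Other genes of the same pathways were taken from 4 lists. The list of triglyceride synthesis had 8 tested genes, among them Cds and Pcyt1, which lead towards phospholipids. Of the 8, 2 were higher and 0 lower in Clk-Jrk than in wild type, with a median log2 difference of 0.13. At 18 °C 5 were higher, Cds and Pcyt1 among them, and 1 lower than at 25 °C, with a median of 0.36. Over all genes these medians were -0.08 and -0.02, with 18.5% higher and 24.9% lower in Clk-Jrk and 23.3% and 25.3% at 18 °C. On the TPM scale 1 of the 8 was higher (mino) and 1 lower (Pcyt1) in Clk-Jrk, with a median of -0.13. On that scale 6.76% of all genes were higher and 48.8% lower, with a median of -0.28. Without replicate 2 the count of the 8 in Clk-Jrk was 0 in both directions, where 1319 of all genes were called. With the marker covariates 4 were higher in Clk-Jrk, and 3 were higher and 1 lower at 18 °C. Of all 9289 genes, 1025 were called at 18 °C with these covariates. The acyltransferase gene Agpat3 was higher in Clk-Jrk by 0.51 ± 0.10 (adjusted p = 0.00101) and at 18 °C by 0.71 ± 0.07 (adjusted p = 8.26e-08). The mitochondrial glycerol-3-phosphate acyltransferase gene mino was higher in Clk-Jrk by 0.54 ± 0.12 (adjusted p = 0.00292). Agpat2 had a difference of 0.27 ± 0.12 there (adjusted p = 0.0813). Agpat4 was lower at 18 °C by -1.28 ± 0.12, at 12 of 12 times (adjusted p = 2.13e-08).

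Of 5 other droplet genes, 3 were higher and 1 lower in Clk-Jrk, with a median of 0.29, and 1 was higher and 1 lower at 18 °C, with a median of 0.06. Of all genes, 43.4% were called in Clk-Jrk and 48.5% at 18 °C, with medians of -0.08 and -0.02. On the TPM scale only Ldsdh1 of the 5 was higher in Clk-Jrk, while Jabba and Seipin were lower. On that scale 6.76% of all genes were higher and 48.8% lower. Without replicate 2 Ldsdh1 was higher and Jabba lower in Clk-Jrk, with 0 called at 18 °C. Ldsdh1, a dehydrogenase of the droplet surface, was higher in Clk-Jrk by 1.26 ± 0.17 (adjusted p = 7.72e-05) and sturkopf by 0.29 ± 0.06 (adjusted p = 0.00208). Jabba, which holds histones on droplets, was lower in Clk-Jrk by -0.71 ± 0.08 (adjusted p = 2.57e-05), at 6 of 6 times. At 18 °C Fitm was higher by 0.41 ± 0.08 (adjusted p = 0.000331) and Seipin, needed for the budding of droplets, lower by -0.31 ± 0.07 (adjusted p = 0.00168). The difference of sturkopf at 18 °C was -0.07 ± 0.05 (adjusted p = 0.242).

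Of 6 other lipases and cofactors, 1 was higher and 0 lower in Clk-Jrk (median 0.09), and 1 was higher and 1 lower at 18 °C (median 0.08). These were smaller shares than the 43.4% and 48.5% of all genes called, whose medians were -0.08 and -0.02. The lipase gene dob was higher in Clk-Jrk by 0.42 ± 0.13 (adjusted p = 0.0209), a call lost without the 6 libraries, without either replicate, with the marker covariates and on the TPM scale, while CG5966 had 0.31 ± 0.20 (adjusted p = 0.222) and puml, the counterpart of the lipase cofactor CGI-58, 0.16 ± 0.11 (adjusted p = 0.255). At 18 °C Lip4 was higher by 0.53 ± 0.10 (adjusted p = 0.000266) and puml lower by -0.33 ± 0.13 (adjusted p = 0.038). PAPLA1 had 0.13 ± 0.08 (adjusted p = 0.154). The lipase gene mag was at 0 in 23 of 58 libraries, as was Akh, the hormone gene, in 21 of 58, and no differences are given for them.

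The list of AKH signalling held the hormone gene Akh and 15 genes that act after the receptor. Of these 16 genes, 2 were higher and 9 lower in Clk-Jrk, with a median of -0.60, against 18.5% and 24.9% of all genes. The 9 lower genes included the protein kinase A subunits Pka-C1, by -1.17 ± 0.16 (adjusted p = 7.06e-05), and Pka-R2, the deacetylase HDAC4, at 0.50 of the wild-type level (adjusted p = 6.88e-06), and foxo, Crtc, CrebB, Sik3, Galphaq and Orai. Each of the 9 was lower at 6 of 6 times. The higher ones were Plc21C and tobi, a glucosidase gene known as a target of the insulin and AKH pathways, by 2.07 ± 0.24, 4.20-fold (adjusted p = 2.51e-05). At 18 °C 8 of the 16 were higher and 0 lower, with a median of 0.20, against 23.3% and 25.3% of all genes. On the TPM scale 2 were higher and 14 lower in Clk-Jrk, beside 6.76% of all genes higher and 48.8% lower. These 14 included Akh, which was at 0 in 21 of 58 libraries. At 18 °C 6 were higher and 0 lower on that scale, beside 20.1% and 17.1% of all genes. With the means of ovary, gut and muscle markers as covariates 2 were higher and 9 lower in Clk-Jrk, with a median of -0.73. At 18 °C 2 were higher with these covariates (Plc21C and SERCA), with a median of 0.14. Calls over all genes fell there too, from 4508 to 1025 of 9289. The calcium genes SERCA and Itpr were higher at 18 °C by 0.53 ± 0.08 (adjusted p = 8.11e-06) and 0.48 ± 0.12 (adjusted p = 0.00213), and the phospholipase gene Plc21C by 0.51 ± 0.08 (adjusted p = 1.12e-05). Muscle and neuron markers moved the same way as this list in both comparisons. Of 5 tested neuron genes, 4 were lower in Clk-Jrk and 5 were higher at 18 °C, and the neuron sum was 13.4 to 29.6 CPM in Clk-Jrk, 23.6 to 109 in wild type at 18 °C and 14.5 to 68.1 in wild type at 25 °C. The muscle sum was 2314 to 4690 CPM in Clk-Jrk, 3657 to 10313 in wild type at 18 °C and 1997 to 7262 in wild type at 25 °C. Neuron markers were not among the covariates, and the part of muscle or neuron RNA alone in these differences was not tested. Of the 35 tested genes of the 4 lists, 0 were called rhythmic in any group. At an unadjusted p under 0.05 stood 6 of the 35 in Clk-Jrk, 7 in wild type at 18 °C and 2 in wild type at 25 °C. Of all 9289 genes, 1432, 1417 and 831 stood there in the same groups. DESeq2 called 0, 2 and 0 of the 35.

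**Figure D5:**
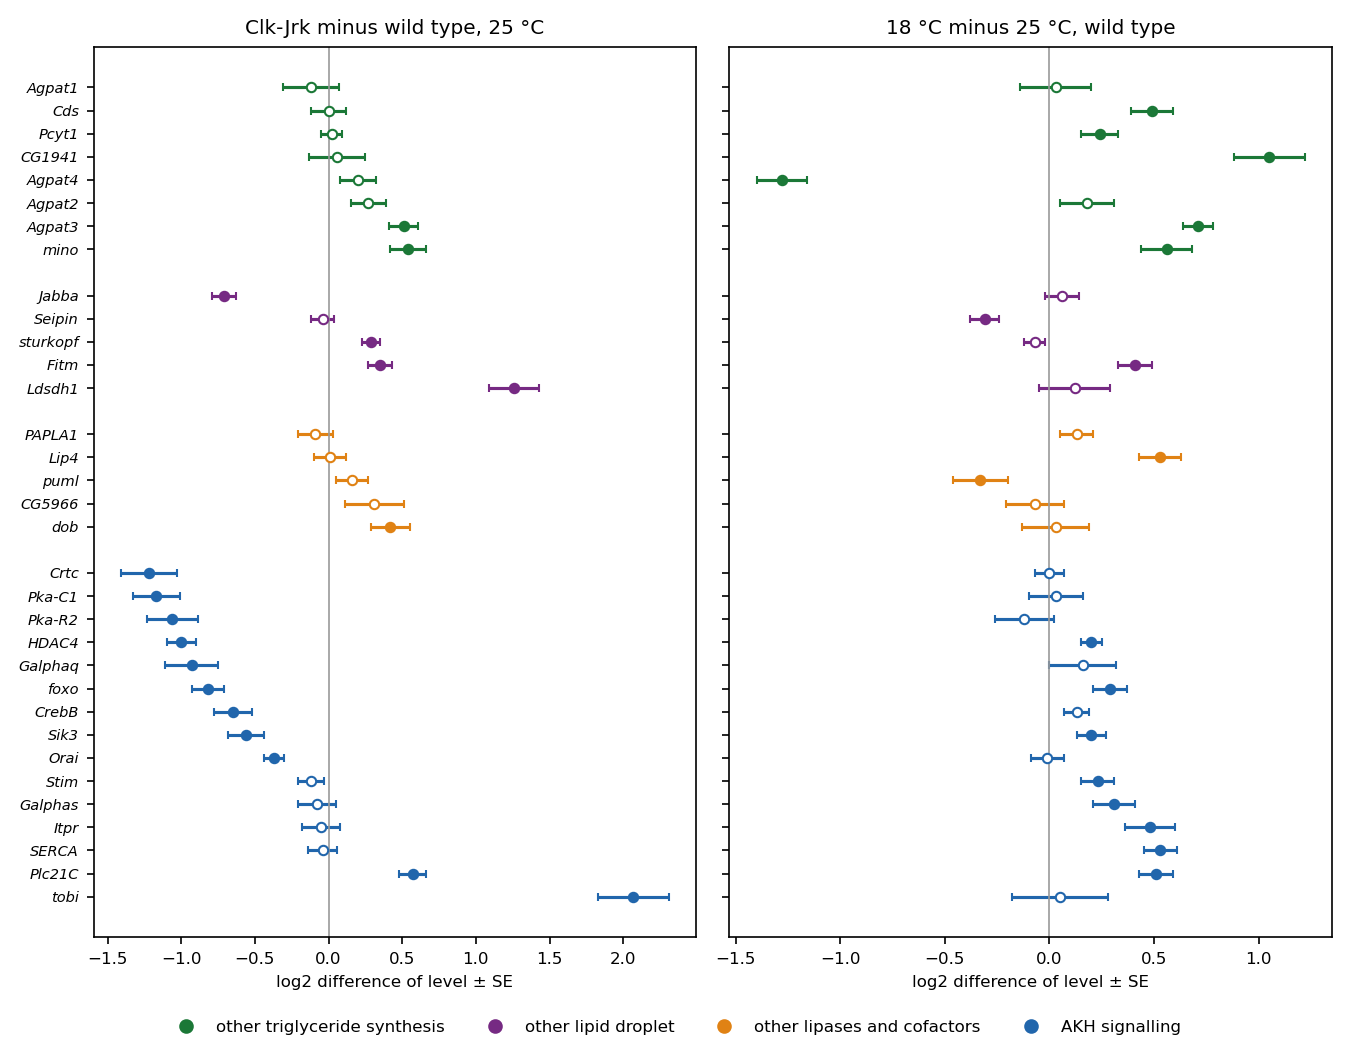
Difference of level (log2, horizontal axis, with SE) of the tested genes of the 4 other pathway lists (rows, coloured by list; mag and Akh, without counts in many libraries, are not drawn) between Clk-Jrk and wild type at 25 °C, left, and between wild type at 18 °C and 25 °C, right; filled points have an adjusted p under 0.05. Most genes of AKH signalling lie below 0 on the left, with a median of -0.60, and tobi lies at 2.07.

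For each of the 9 genes, the 2 genes with the most similar levels over the 30 means of group and time were found by Pearson's r, as a description, since these means share libraries, scaling and group differences. Dgat2 was most like CG2065 (r = 0.96), which lies on the same chromosome arm at 2R:7663786-7665269, and the cytochrome P450 gene Cyp6a8 (r = 0.94), at 2R:14887171-14889010. CG2065 had a median of 186 CPM in Clk-Jrk, against 39.7 CPM in wild type, 4.12-fold higher (adjusted p = 6.94e-05), and was at 0.58 of its 25 °C level at 18 °C (adjusted p = 0.00385). Cyp6a8 had a median of 2161 CPM in Clk-Jrk, against 217 CPM in wild type, 12.2-fold higher (adjusted p = 7.36e-07), and was at 0.35 of its 25 °C level at 18 °C (adjusted p = 0.000262). Both genes had the same directions as Dgat2 in both comparisons, which the choice by likeness favours.

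The genes most like Lpin were FASN1 (r = 0.88), the fatty acid synthase, and SREBP (r = 0.88), a transcription factor of fatty acid synthesis. Those most like mdy were CG31157 (r = 0.92) and PGRP-LF (r = 0.90), and those most like Gpat4 were CG1317 (r = 0.88) and GNBP3 (r = 0.87). For Lsd-1 they were CG14207 (r = 0.87) and CG5001 (r = 0.84), and for Lsd-2 wit (r = 0.83) and Jabba (r = 0.82). For bmm they were Irc (r = 0.83) and EDTP (r = 0.82), for Hsl Klp98A (r = 0.90) and Cyp4ac3 (r = 0.90), and for AkhR Sar1 (r = 0.93) and Sox102F (r = 0.91). Among the 9 genes themselves, 9 of 36 pairs had r above 0.5, with mdy and AkhR the highest at 0.72, and 1 pair, Dgat2 and Hsl, was below -0.5, at -0.63.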

How the data were processed

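RNA of abdominal fat tissue was measured in 60 libraries of 3 groups, taken from the labels. The authors deposited, per group, a table of estimated counts per gene and a table of TPM, made with kallisto 0.46.2 per the submitters' processing notes. The sources used here name neither the transcriptome release nor the way transcripts were summed to genes. Of the nonzero estimated counts as deposited, 80.5% lay within 0.001 of a whole number. Symbols were matched for 13950 of 13969 gene IDs, and positions are from the annotation of build BDGP6.54, a separate source.

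Columns of wild type with no replicate number in their name were read as replicate 1. The identical pair of columns was left out. The estimated counts were rounded to whole numbers, edgeR's filterByExpr with the 3 groups kept 9289 genes, and TMM scaled the libraries. CPM are rounded counts over the scaled total of the tested genes. All adjusted p come from edgeR 4.0.16 in R 4.3.3, by its quasi-likelihood test, Benjamini-Hochberg adjusted over all genes tested, with 0.05 as the threshold. Levels were compared by a contrast of group means over the shared times, with a mean for each group and time. Rhythm was tested on a cosine and a sine of 24 h together, and differences in rhythm on their interactions with the group. Amplitudes are those of least-squares cosines on log2 CPM (prior count 2). The SE of a log2 difference is its size over the square root of F. The labels speak of independent samplings but do not tie libraries to cultures, so p-values measure the spread between these libraries, which may in part be technical. The depth was 4923858 to 46590109 counts a library.

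The members, lists, tests and alternatives were chosen with earlier results of these data known. All 9 genes were named, with the up to 3 genes of smallest adjusted p in each pathway list and the 2 most similar genes of each. CG1941 and CG1946, kermit and CG10214 were named for their position. Alternatives were DESeq2 1.42.0, RLE size factors, no filter, limma-trend 3.58.1 on log2(TPM + 1) and on log2(TPM + 0.1), a replicate block, each replicate left out, 6 libraries left out, marker means as covariates, additive times, the identical pair kept, times as a factor, a 12 h harmonic, a light and dark step, each time left out and a threshold of 0.01. The 6 libraries were ZT 2, 4, 10 and 14 of replicate 1 in wild type at 25 °C, ZT 24 of replicate 1 in wild type at 18 °C, and Clk-Jrk, replicate 2, at ZT 22. They were set aside from earlier results, for RNA of other organs or little mitochondrial RNA, and by no cut-off on the marker sums given here. Photoreceptor genes summed to 1966 CPM in that of ZT 10 and 1450 CPM in that of ZT 24. The 18 °C library with the highest ovary and gut sums, 3358 and 4359 CPM (replicate 2 at ZT 12), was kept. A replicate block within each group was added after seeing the data. The fits were tested on simulated counts, drawn independently for each library. The simulation held no shared deviation of libraries of one replicate number, which these data show, so it does not cover that.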

Additional observations from a re-analysis of the deposited data

How the results depend on the processing

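The count of the 9 genes called in a level comparison was 4 in Clk-Jrk against wild type, and it was 2 without the 6 libraries (Dgat2 and bmm), 1 at an adjusted p under 0.01 (Dgat2) and between 1 and 4 with a replicate left out. It was 5 on both TPM scales (Dgat2, Lsd-1, Lsd-2, Hsl and AkhR), 3 with a replicate block per group (bmm lost) and 4 with the marker covariates (mdy gained, bmm lost). At 18 °C against 25 °C it was 5, and it was 6 on both TPM scales (Lsd-1 gained), 3 with the marker covariates (mdy, Dgat2 and Hsl), 3 with a replicate block per group (mdy, bmm and Hsl) and 3 to 4 with a replicate left out. The rhythm count in wild type at 18 °C was 1, and it was 0 with RLE size factors, with no filter, with limma-trend at both pseudocounts, at an adjusted p under 0.01, with times as a factor and with a 12 h harmonic, 2 with the light and dark step, and 0 to 1 with a replicate or a time left out. The other rhythm counts and both counts of differences in rhythm were 0 under every alternative run. Genes that changed direction had not been called. In Clk-Jrk against wild type the log2 difference of Gpat4 was -0.17 with limma-trend on both TPM scales and -0.06 with the block per group, and -0.06 to 0.33 with a replicate left out, that of mdy was -0.05 on both TPM scales, and that of Hsl was 0.01 with RLE, DESeq2, no filter and without the 6 libraries, and -0.01 to 0.01 with a replicate left out. At 18 °C against 25 °C Gpat4 was at -0.03 to 0.09 with a replicate left out and at -5e-05 with the marker covariates, which also gave Lpin -0.09 and Lsd-1 -0.04, and Lsd-2 was at 0.0004 on both TPM scales and -0.26 to 0.13 with a replicate left out. The cause of these shifts was not tested. Same-numbered libraries of wild type at 18 °C and 25 °C deviated together in 8 of 10 pairs (r over 0.1, from -0.19 to 0.55), and those of Clk-Jrk and wild type in 1 of 6. The main fits held no term for the replicate number and treated libraries of the same number as independent, which these values do not bear out for wild type. Within a group, libraries of one number also deviated together over the times, with r over 0.1 in 37 of 45 pairs of times at 18 °C (median 0.44), 44 of 66 in wild type at 25 °C (median 0.29) and 6 of 15 in Clk-Jrk (median 0.06). With a shared replicate block the counts were 4 in Clk-Jrk against wild type and 5 at 18 °C against 25 °C, and 1 for the rhythm at 18 °C. Over all genes, the 4033 calls in Clk-Jrk ran from 1319 without replicate 2 to 5220 on a TPM scale, and the 4508 at 18 °C from 1025 with the marker covariates to 5517 with the replicate block. For the rhythm at 18 °C the 180 calls ranged between 0 and 561.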
